A study of Mus musculus with 12 samples.

Results

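The genes described here are 49 genes of microglia and of the complement system, listed by name, in the striatum of a mouse model of Huntington's disease (HD). Of these, 46 were analysed, each by 1 probe set with a single gene symbol, among 19248 genes in all. Cx3cr1, C3 and Spp1 had no such probe set in the platform table used and were not analysed here. The members comprised 12 measured homeostatic microglia markers, 11 myeloid identity genes, 5 genes of Trem2, Fc receptors and their adaptors, 5 complement genes, 4 pattern recognition receptors and 9 activation genes. The study measured 12 striata, 3 in each of 4 groups of mice at 8 weeks: HD transgenic mice with p62 knockout, HD transgenic mice with normal p62, mice without the HD transgene (non-transgenic, NT) with p62 knockout, and NT mice with normal p62. The groups are called HD mice without p62, HD mice with p62, NT mice without p62 and NT mice with p62 below. The cross asked how loss of p62, the autophagy receptor encoded by Sqstm1, changes gene expression in the HD model. The sources used here do not name the transgene, its promoter, the strain, the sex of the animals or the cells in which p62 was deleted.

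Microglia are the resident macrophages of the brain. In healthy tissue they carry a set of surface receptors, such as P2ry12, Tmem119 and Cx3cr1, that is known to be lowered when they become activated, while lysosomal, lipid-handling and lectin genes such as Lpl, Cst7, Clec7a and Spp1 rise. Complement component C1q is made mainly by microglia in the brain, tags synapses and debris, and starts a cascade that runs through C4 and C3 to the receptors C3ar1 and Itgam/Itgb2. Microglial survival depends on the receptor Csf1r, whose ligands are Csf1 and Il34, and neurons signal to microglia through Cx3cl1 and Cd200.

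Each value is a log2 expression level, so a difference of 1 is a doubling, and levels of different genes are not compared with each other. Sqstm1 was 8.92, 9.13 and 9.02 in HD mice without p62, against 11.75, 11.26 and 11.51 in HD mice with p62. It was 8.44, 8.52 and 8.49 in NT mice without p62, against 11.19, 11.35 and 11.24 in NT mice with p62. All 6 mice labelled as knockouts were therefore below all 6 with normal p62. The mean log2 value of 14 measured markers of striatal projection neurons was 10.54 to 10.60 in HD mice without p62 and 10.66 to 10.68 in HD mice with p62. It was 11.18 to 11.37 in NT mice without p62 and 11.11 to 11.27 in NT mice with p62. No other tissue was measured, so these values cannot test the label of striatum. For the HD effect averaged over both p62 genotypes, 13 of these markers fell and 1, Tac1, rose (limma, adjusted p below 0.05), beside 35.0% of all genes called. Choroid plexus genes (11 measured) varied more between mice. Their mean was 7.08 to 9.18 in HD mice without p62 and 7.10 to 8.48 in HD mice with p62. It was 8.31 to 8.53 in NT mice without p62 and 7.18 to 7.55 in NT mice with p62, without overlap. For NT mice without p62 against NT mice with p62, the median difference of these genes was 0.83. In that comparison 7 of 11 had an unadjusted p below 0.05 (limma), beside 3.32% of all genes, and none passed after adjustment. The spread of log2 values within an array (SD over genes) was 1.66 to 1.73 in HD mice without p62, 1.64 to 1.71 in HD mice with p62, 1.58 to 1.67 in NT mice without p62 and 1.65 to 1.66 in NT mice with p62. Precision was limited by having 3 arrays in a group.

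Few of the microglia and complement genes differed between HD and NT striata, and those that did moved by small amounts in both directions. For the HD effect averaged over both p62 genotypes, called the mean HD effect below, 7 of 46 members rose and 4 fell (limma, adjusted p below 0.05). The risen members were C4b, Ctss, Tlr4, Cd53, Ly86, Fcer1g and Selplg, and the fallen ones were Irf8, Lpl, Itgb2 and Tnf. The called share was 23.9% of members, below the 35.0% of all genes called in that comparison (19.9% of all genes rose and 15.0% fell). At an unadjusted p below 0.05 the counts were 15 of 46 members (32.6%) and 46.9% of all genes. The median mean HD effect was 0.08 over the members and -0.02 over all genes on the log2 scale. In these bulk striata, fewer cells of a type and less RNA per cell cannot be told apart. When the spread of each array was added to the fit as a covariate, the called members were 2 of 46, Tlr4 and Lpl, beside 13.2% of all genes. Most HD arrays had a larger spread than every NT array (up to 1.73 in HD and 1.67 in NT mice). Array spread and the HD effect thus cannot be fully told apart in any fit with this covariate.

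**Figure D1:**
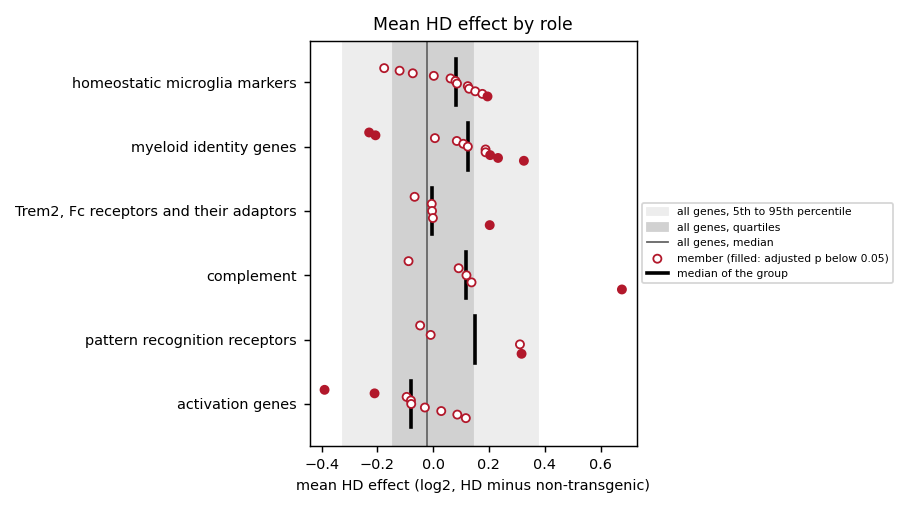
Mean HD effect of each measured member (log2, HD minus NT, horizontal axis) by role group (vertical axis). Filled points passed limma at an adjusted p below 0.05, black lines are group medians, and the shaded bands give the quartiles and the 5th to 95th percentile of all 19248 genes. Group medians lie between -0.08 for activation genes and 0.15 for pattern recognition receptors.

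Taken by p62 genotype, 5 of 46 members passed for HD mice without p62 against NT mice without p62 (10.9%, beside 21.7% of all genes). Selplg, Cd53 and Ctss rose (13.3% of all genes rose) and Itgb2 and Tnf fell (8.34% of all genes fell), and 13 members (28.3%) had an unadjusted p below 0.05, beside 38.8% of all genes. All 5 calls were lost with the array spread as a covariate (limma, adjusted p = 0.0838 for Cd53, 0.186 for Ctss, 0.262 for Itgb2, 0.393 for Selplg and 0.428 for Tnf), in a fit that called 4.38% of all genes. For HD mice with p62 against NT mice with p62, Tlr4 alone passed (2.17% of members, beside 7.10% of all genes), and it rose, as did 3.85% of all genes while 3.24% fell. An unadjusted p below 0.05 was found for 7 members (15.2%) and for 25.4% of all genes. The 3 mice of one group lay wholly above or below the 3 of the other for 14 of 46 members in the comparison without p62 (30.4%, beside 39.4% of all genes) and for 9 of 46 in the comparison with p62 (19.6%, beside 33.1% of all genes). In both comparisons Selplg and Ctss were separated upwards and Lpl and Tnf downwards, and 0 members were separated in opposite directions. Across all 6 HD and all 6 NT mice, Ctss was higher and Lpl was lower without overlap, which is 4.35% of members beside 16.2% of all genes.

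The count without p62 depended on single mice. It was 1 without the HD mouse without p62 numbered 2 (6.61% of all genes then called), 3 without the one numbered 3 (9.33%), and 2 without NT mouse without p62 number 3 (9.75%). The count with p62 was 0 without HD mouse with p62 number 3 (2.07% of all genes), 2 without HD mouse without p62 number 2 (6.35%) and 2 without NT mouse with p62 number 2 (4.39%). The share of all genes called was lower than in the main fit in each of these fits, including those in which the count with p62 was 2.

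**Figure D2:**
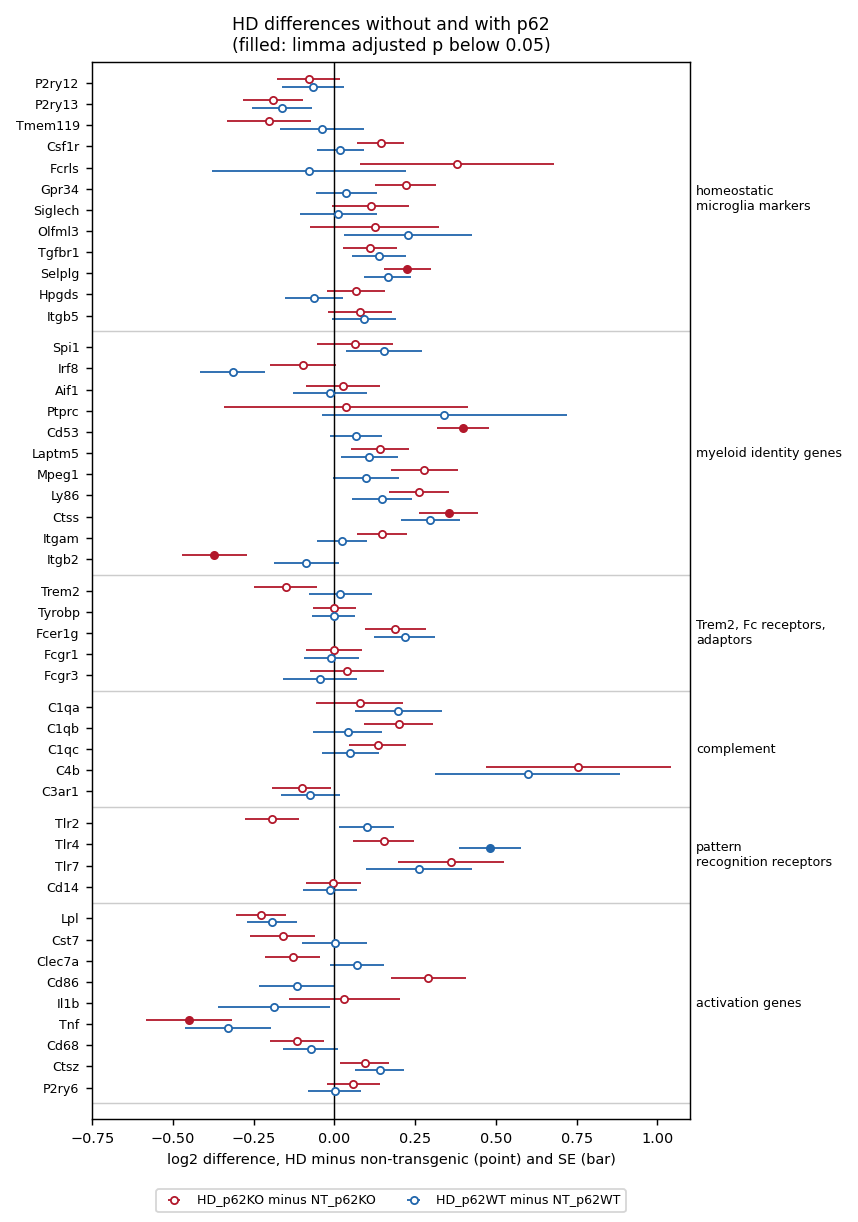
HD minus NT difference of every measured member (log2, horizontal axis; bars are SE) for mice without and with p62, with genes down the page by role. Filled points passed limma at an adjusted p below 0.05, which holds for 5 members without p62 and for Tlr4 with p62.

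The promoter windows of 4 risen members are shown because these genes rose in the same tissue and the RefSeq promoter table held an entry for them. Each is the 250 bases before the gene start on the gene's strand, build GRCm38.p6, written 5′ to 3′, with capitals marking 2 motifs searched on both strands. The motifs were GAGGAA, the purine-rich core bound by PU.1 (Spi1, the master regulator of myeloid cells) and other ETS factors, and GAAA followed by any 2 bases and GAAA again, the core of the interferon-stimulated response element bound by factors such as Irf8. The motifs overlapped in none of the 4 windows, and a match is a description of letters only. The windows are chr3:95526536-95526785 on the plus strand for Ctss, chr3:106790150-106790399 on the minus strand for Cd53, chr1:171234350-171234599 on the minus strand for Fcer1g and chr13:37345095-37345344 on the plus strand for Ly86.
Ctss: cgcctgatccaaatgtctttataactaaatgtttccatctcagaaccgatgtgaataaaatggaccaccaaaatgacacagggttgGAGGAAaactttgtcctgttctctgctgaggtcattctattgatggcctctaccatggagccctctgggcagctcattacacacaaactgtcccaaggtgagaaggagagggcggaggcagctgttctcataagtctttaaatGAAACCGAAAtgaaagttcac
Cd53: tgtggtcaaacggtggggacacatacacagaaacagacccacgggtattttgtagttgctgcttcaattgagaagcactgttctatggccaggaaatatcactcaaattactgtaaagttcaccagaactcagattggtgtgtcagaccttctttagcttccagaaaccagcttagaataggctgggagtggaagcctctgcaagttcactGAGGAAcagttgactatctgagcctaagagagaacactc
Fcer1g: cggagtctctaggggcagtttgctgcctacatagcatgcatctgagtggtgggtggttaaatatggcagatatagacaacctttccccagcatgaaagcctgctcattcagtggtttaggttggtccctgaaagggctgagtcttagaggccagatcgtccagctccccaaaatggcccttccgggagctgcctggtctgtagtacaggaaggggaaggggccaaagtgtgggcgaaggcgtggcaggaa
Ly86: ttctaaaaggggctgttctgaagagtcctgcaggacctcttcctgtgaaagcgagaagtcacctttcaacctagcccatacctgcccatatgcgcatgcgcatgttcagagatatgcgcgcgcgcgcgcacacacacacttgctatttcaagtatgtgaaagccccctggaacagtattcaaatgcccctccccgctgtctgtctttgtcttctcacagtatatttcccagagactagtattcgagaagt

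The Ctss window held 1 GAGGAA, which started 164 bases before the gene start, and 1 copy of the interferon motif, which started 21 bases before it. The Cd53 window held 1 GAGGAA, which started 39 bases before the gene start. Neither motif was found in the Fcer1g and Ly86 windows. Of 31 members with an entry, 18 held GAGGAA (58.1%), against 25.9% of 27025 genes in the table. The interferon motif was found in 2 of the 31, Aif1 and Ctss (6.45%), against 3.46% of all genes.

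Among the homeostatic markers, 1 of 12 rose, none fell and 11 did not pass for the mean HD effect, with a median of 0.08. The called share was 8.33%, beside 35.0% of all genes. P2ry12, the ADP receptor that steers microglial processes, had log2 values of 9.39, 9.60 and 9.35 in HD mice without p62 and 9.71, 9.39 and 9.60 in HD mice with p62, against 9.59, 9.52 and 9.48 in NT mice without p62 and 9.63, 9.73 and 9.52 in NT mice with p62. The groups overlapped, and the mean HD effect was -0.07 ± 0.068 (SE; limma, adjusted p = 0.412). Its 95% interval ran from -0.22 to 0.08.

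P2ry13, a neighbouring ADP receptor gene, had values of 8.06, 8.23 and 8.01 in HD mice without p62 and 8.13, 8.08 and 8.31 in HD mice with p62, against 8.28, 8.23 and 8.35 in NT mice without p62 and 8.34, 8.47 and 8.20 in NT mice with p62. Its mean HD effect of -0.18 ± 0.066 (SE) did not pass (limma, adjusted p = 0.0549). Tmem119, a membrane protein specific to microglia within the brain, had values of 8.39, 8.37 and 8.42 in HD mice without p62 and 8.35, 8.51 and 8.80 in HD mice with p62, against 8.38, 8.73 and 8.68 in NT mice without p62 and 8.74, 8.36 and 8.68 in NT mice with p62. HD and NT mice overlapped, and its mean HD effect was -0.12 ± 0.092 (SE; limma, adjusted p = 0.315).

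Selplg, the selectin ligand that is among the surface markers of resting microglia, was the 1 homeostatic marker that rose. Its log2 values were 9.64, 9.81 and 9.67 in HD mice without p62 and 9.80, 9.68 and 9.87 in HD mice with p62, against 9.49, 9.53 and 9.43 in NT mice without p62 and 9.62, 9.65 and 9.57 in NT mice with p62. All 3 HD mice lay above all 3 NT mice of the same p62 genotype. The mean HD effect was 0.19 ± 0.052 (SE; 1.14-fold; limma, adjusted p = 0.0134). The difference was 0.22 ± 0.073 without p62 (adjusted p = 0.0457) and 0.16 ± 0.073 with p62 (adjusted p = 0.18). The call without p62 was lost when any 1 of 10 mice was left out, namely HD mice without p62 numbered 2 and 3, HD mice with p62 numbered 1 and 3 and all 6 NT mice, with adjusted p between 0.052 and 0.177.

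Tgfbr1, a receptor for TGF-beta, which maintains the homeostatic state, had values of 7.96, 8.16 and 8.12 in HD mice without p62 and 8.10, 7.90 and 7.99 in HD mice with p62, against 7.95, 8.10 and 7.85 in NT mice without p62 and 7.81, 7.86 and 7.90 in NT mice with p62. It was separated upwards in mice with p62 by a margin smaller than the printed digits and overlapped without p62, and its mean HD effect of 0.12 ± 0.059 (SE) did not pass (limma, adjusted p = 0.119). Csf1r, the receptor on which microglial survival depends, had a mean HD effect of 0.08 ± 0.051 (SE; limma, adjusted p = 0.235). The mean HD effects of Fcrls, Gpr34, Siglech, Olfml3, Hpgds and Itgb5 ran from 0.00 for Hpgds to 0.18 for Olfml3, and none passed. Fcrls, an Fc receptor-like gene, was among the members that varied most within groups, with values of 8.54, 8.64 and 8.40 in HD mice without p62 and 8.16, 8.50 and 8.57 in HD mice with p62, against 7.55, 8.83 and 8.07 in NT mice without p62 and 7.83, 8.82 and 8.80 in NT mice with p62.

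**Figure D3:**
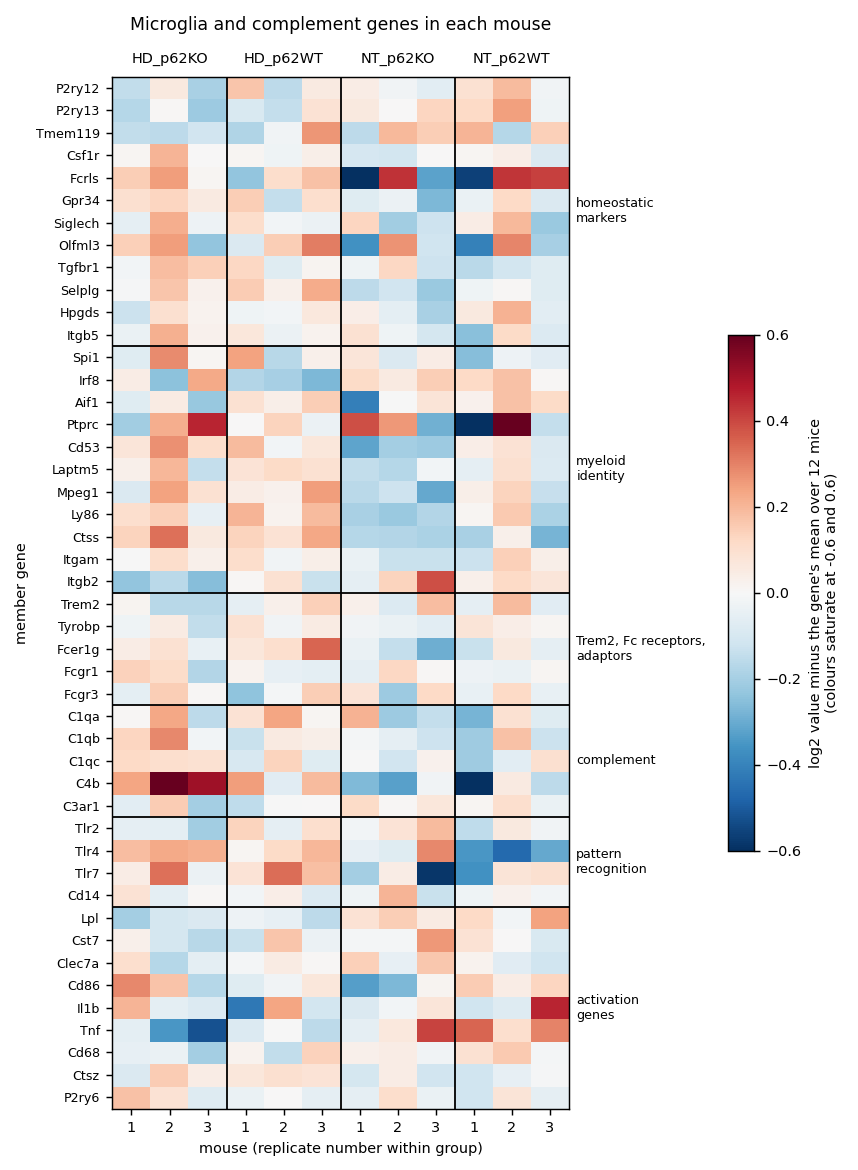
Each measured member (vertical axis, by role) in each of the 12 mice (horizontal axis, HD mice left of NT mice, without p62 left of with p62), coloured by its log2 value minus the member's mean over all mice. Rows such as Ptprc and Fcrls differ more among mice of 1 group than most other members do.

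Myeloid identity genes held the most calls of any role for the mean HD effect, 5 of 11 (45.5%, beside 35.0% of all genes). Of these genes 3 rose, 2 fell and 6 did not pass, while 19.9% of all genes rose and 15.0% fell. The group's median was 0.12. Ctss, the lysosomal cysteine protease cathepsin S, had log2 values of 9.06, 9.26 and 8.99 in HD mice without p62 and 9.06, 9.01 and 9.16 in HD mice with p62, against 8.75, 8.75 and 8.74 in NT mice without p62 and 8.73, 8.96 and 8.65 in NT mice with p62. All 6 HD mice lay above all 6 NT mice, by 0.33 ± 0.065 on average (SE; 1.25-fold; limma, adjusted p = 0.00335). The difference was 0.35 without p62 (adjusted p = 0.0208) and 0.30 with p62 (adjusted p = 0.0702). The call without p62 was lost when HD mouse without p62 number 2 was left out (adjusted p = 0.0907) or NT mouse without p62 number 3 (adjusted p = 0.0601).

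Cd53, a tetraspanin of leukocytes, had values of 7.85, 8.05 and 7.88 in HD mice without p62 and 7.97, 7.76 and 7.84 in HD mice with p62, against 7.46, 7.57 and 7.56 in NT mice without p62 and 7.82, 7.86 and 7.69 in NT mice with p62. The groups without p62 did not overlap, whereas those with p62 did. The difference was 0.40 ± 0.081 without p62 (SE; 1.32-fold; limma, adjusted p = 0.0086) and 0.07 ± 0.081 with p62 (adjusted p = 0.641). The test of the difference between these HD effects gave 0.33 and did not pass (unadjusted p = 0.0139, limma, adjusted p = 0.991), so the HD effects were not shown to differ by p62 genotype. In NT mice the p62 knockout itself went with a Cd53 difference of -0.26 (unadjusted p = 0.00763), which did not pass after adjustment over all genes.

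Ly86, the secreted partner of the receptor Cd180, had values of 9.66, 9.70 and 9.51 in HD mice without p62 and 9.77, 9.58 and 9.75 in HD mice with p62, against 9.37, 9.34 and 9.38 in NT mice without p62 and 9.57, 9.72 and 9.37 in NT mice with p62. Without p62 the groups were separated and with p62 they overlapped. The mean HD effect was 0.20 ± 0.065 (SE; 1.15-fold; limma, adjusted p = 0.0296). Leaving out any 1 of 5 mice ended the call, namely HD mouse without p62 number 2, HD mice with p62 numbers 1 and 3 and NT mice with p62 numbers 1 and 3, with adjusted p between 0.0518 and 0.0719.

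Itgb2, the shared beta chain of the leukocyte integrins and of complement receptor 3, moved the other way. Its values were 7.48, 7.56 and 7.47 in HD mice without p62 and 7.73, 7.81 and 7.59 in HD mice with p62, against 7.67, 7.85 and 8.11 in NT mice without p62 and 7.75, 7.84 and 7.79 in NT mice with p62. HD mice without p62 lay below NT mice without p62, and the groups with p62 overlapped. The difference was -0.37 ± 0.101 without p62 (SE; limma, adjusted p = 0.0238), -0.09 ± 0.101 with p62 (adjusted p = 0.625) and -0.23 ± 0.071 as the mean HD effect (adjusted p = 0.0268). The mean effect's call was lost without HD mouse without p62 number 3, HD mouse with p62 number 3 or NT mouse with p62 number 2 or 3 (adjusted p between 0.0508 and 0.069). The call without p62 was lost without HD mouse without p62 number 2 or 3 or NT mouse without p62 number 3 (adjusted p between 0.0599 and 0.0794).

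Irf8, a transcription factor of the macrophage lineage, had values of 8.52, 8.23 and 8.70 in HD mice without p62 and 8.30, 8.27 and 8.20 in HD mice with p62, against 8.59, 8.53 and 8.62 in NT mice without p62 and 8.59, 8.65 and 8.48 in NT mice with p62. With p62 the groups were separated downwards and without p62 they overlapped. The mean HD effect was -0.21 ± 0.072 (SE; limma, adjusted p = 0.0426). The call ended when any 1 of 8 mice was left out: HD mouse without p62 number 2, all 3 HD mice with p62, NT mice without p62 numbers 1 and 3 and NT mice with p62 numbers 1 and 2, with adjusted p between 0.056 and 0.0926. Its partner Spi1 had a mean HD effect of 0.11 ± 0.083 (SE; limma, adjusted p = 0.316).

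Mpeg1, the perforin-like protein of macrophages, had a mean HD effect of 0.19 ± 0.073 (SE; limma, adjusted p = 0.0625), and Itgam, the alpha chain that pairs with Itgb2, had 0.08 ± 0.055 (adjusted p = 0.239). Aif1, which encodes the common microglial stain Iba1, had 0.01 ± 0.082 (limma, adjusted p = 0.956). Laptm5, a lysosomal protein of haematopoietic cells, had 0.12 ± 0.063 (limma, adjusted p = 0.139). Ptprc, which encodes CD45, ranged from 4.39 to 6.40 within NT mice with p62, and its mean HD effect of 0.19 ± 0.268 (SE) had the largest error of any member.

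**Figure D4:**
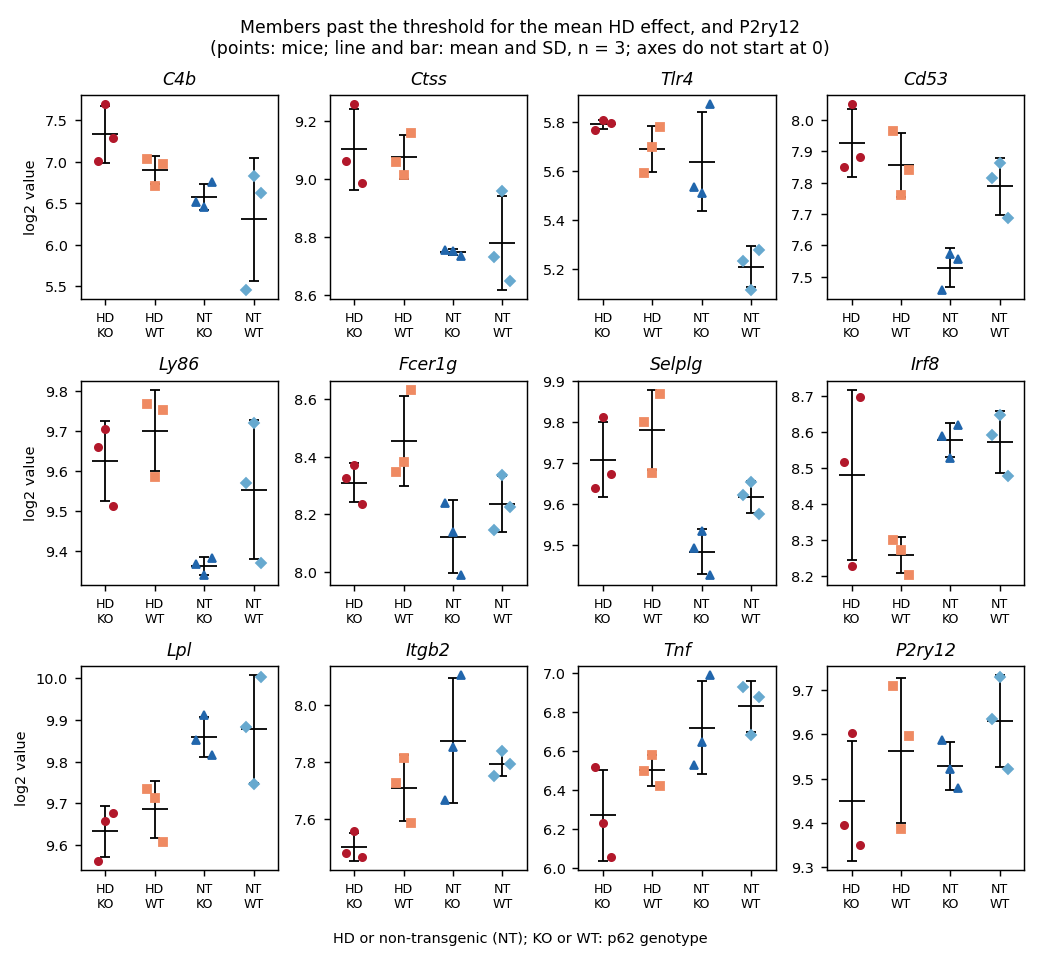
Log2 values (vertical axes, which do not start at 0) of the 11 members past the threshold for the mean HD effect, and of P2ry12, in each of the 4 groups (horizontal axes). Points are mice, and lines and bars are means and SD (n = 3). Ctss is higher in all 6 HD mice and Lpl lower, with no overlap, while P2ry12 overlaps.

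In the Trem2 and Fc receptor group, 1 of 5 rose (20%, beside 35.0% of all genes called) and 4 did not pass for the mean HD effect. The group's median was within 0.01 of 0. Fcer1g, the signalling gamma chain of Fc receptors, had log2 values of 8.32, 8.37 and 8.24 in HD mice without p62 and 8.35, 8.38 and 8.63 in HD mice with p62, against 8.24, 8.14 and 7.99 in NT mice without p62 and 8.15, 8.34 and 8.23 in NT mice with p62. With p62 the HD mice lay above the NT mice, and without p62 the lowest HD value overlapped the highest NT value. The mean HD effect was 0.20 ± 0.066 (SE; 1.15-fold; limma, adjusted p = 0.0334), and the difference was 0.19 without p62 and 0.22 with p62, neither of which passed. The call ended without HD mouse without p62 number 2, HD mouse with p62 number 3, NT mouse without p62 number 3 or NT mouse with p62 number 1 or 3 (adjusted p between 0.0643 and 0.0816).

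Trem2, the lipid receptor of activated microglia, had values of 8.91, 8.73 and 8.73 in HD mice without p62 and 8.84, 8.93 and 9.04 in HD mice with p62, against 8.93, 8.81 and 9.08 in NT mice without p62 and 8.84, 9.09 and 8.83 in NT mice with p62. The groups overlapped, and the mean HD effect was -0.07 ± 0.069 (SE; limma, adjusted p = 0.459). Its adaptor Tyrobp had a mean HD effect of -0.00 ± 0.047 (SE; limma, adjusted p = 0.987). Fcgr1 and Fcgr3, the activating receptors for immunoglobulin G, had -0.01 ± 0.061 and -0.00 ± 0.081 (SE; limma, adjusted p = 0.951 and 0.971).

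Of 5 complement genes, 1 rose (20%, beside 35.0% of all genes called), and the group's median mean HD effect was 0.12. C4b, the component cleaved by the C1 complex, had log2 values of 7.01, 7.69 and 7.28 in HD mice without p62 and 7.03, 6.71 and 6.97 in HD mice with p62, against 6.51, 6.45 and 6.76 in NT mice without p62 and 5.45, 6.83 and 6.62 in NT mice with p62. HD mice without p62 lay above NT mice without p62, whereas with p62 the lowest HD value (6.71) overlapped the highest NT value (6.83). The mean HD effect was 0.68 ± 0.203 (SE; 1.60-fold; limma, adjusted p = 0.0232), the largest difference of any member. It was 0.75 without p62 (adjusted p = 0.0761) and 0.60 with p62 (adjusted p = 0.215). The call ended without HD mouse without p62 number 2 (adjusted p = 0.0592) or HD mouse with p62 number 1 (adjusted p = 0.0531). NT mouse with p62 number 1 stood lowest at 5.45. The pooled within-group SD of C4b was 0.425, beside a median of 0.118 over the members. C4b lay at percentile 25.8 of mean log2 values, and whether its transcript was detected was not tested. C4a, a near-identical copy measured by its own probe set, had a mean HD effect of -0.00 ± 0.086 (SE; limma, adjusted p = 0.986), and how far the 2 probe sets bind each other's transcripts was not tested.

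The 3 chains of C1q, which are encoded side by side, did not pass. C1qa had values of 8.55, 8.77 and 8.38 in HD mice without p62 and 8.62, 8.77 and 8.55 in HD mice with p62, against 8.75, 8.32 and 8.39 in NT mice without p62 and 8.26, 8.63 and 8.46 in NT mice with p62. C1qb had 10.17, 10.33 and 10.03 in HD mice without p62 and 9.91, 10.09 and 10.08 in HD mice with p62, against 10.03, 9.98 and 9.92 in NT mice without p62 and 9.83, 10.22 and 9.91 in NT mice with p62. C1qc had 9.24, 9.22 and 9.21 in HD mice without p62 and 9.03, 9.26 and 9.05 in HD mice with p62, against 9.12, 9.01 and 9.15 in NT mice without p62 and 8.91, 9.06 and 9.22 in NT mice with p62. HD and NT mice overlapped for C1qa and C1qb at both p62 genotypes, and C1qc was separated upwards in mice without p62. The mean HD effects were 0.14 ± 0.095 for C1qa, 0.12 ± 0.076 for C1qb and 0.09 ± 0.063 for C1qc (SE; limma, adjusted p = 0.268, 0.229 and 0.265). Their 95% intervals ended at 0.34, 0.28 and 0.23. C3ar1, the receptor for the C3a fragment, had a mean HD effect of -0.09 ± 0.064 (SE; limma, adjusted p = 0.289).

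Of 4 pattern recognition receptors, 1 rose (25%, beside 35.0% of all genes called) and 3 did not pass for the mean HD effect. Tlr4, the receptor for bacterial lipopolysaccharide, had log2 values of 5.77, 5.81 and 5.80 in HD mice without p62 and 5.59, 5.70 and 5.78 in HD mice with p62, against 5.54, 5.51 and 5.87 in NT mice without p62 and 5.24, 5.12 and 5.28 in NT mice with p62. With p62, all HD mice lay above all NT mice. Without p62, NT mouse number 3 (5.87) lay above all HD mice. The difference was 0.48 ± 0.096 with p62 (SE; 1.40-fold; limma, adjusted p = 0.0143), 0.15 ± 0.096 without p62 (adjusted p = 0.253) and 0.32 ± 0.068 as the mean HD effect (adjusted p = 0.00464). The difference of the HD effects was -0.33 and did not pass (unadjusted p = 0.0309). The call with p62 was lost without HD mouse with p62 number 3 (adjusted p = 0.0686). Tlr4 was 1 of 8 members whose mean log2 value was below the 25th percentile of all genes, and no call of presence on the array was used here.

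Tlr7, an endosomal receptor for single-stranded RNA, had values of 7.06, 7.35 and 6.98 in HD mice without p62 and 7.10, 7.35 and 7.20 in HD mice with p62, against 6.81, 7.06 and 6.44 in NT mice without p62 and 6.65, 7.10 and 7.11 in NT mice with p62. The groups overlapped, and the mean HD effect of 0.31 ± 0.116 (SE) did not pass (limma, adjusted p = 0.0552). Tlr2, which senses bacterial lipoproteins, had a mean HD effect of -0.05 ± 0.060 (SE; limma, adjusted p = 0.552). Cd14, the co-receptor of Tlr4, had -0.01 ± 0.060 (SE; limma, adjusted p = 0.915).

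Of the 9 activation genes, none rose for the mean HD effect, 2 fell and 7 did not pass, and the median was -0.08. The called share was 22.2%, beside 35.0% of all genes. Lpl, lipoprotein lipase, had log2 values of 9.56, 9.66 and 9.68 in HD mice without p62 and 9.73, 9.71 and 9.61 in HD mice with p62, against 9.85, 9.91 and 9.81 in NT mice without p62 and 9.88, 9.75 and 10.00 in NT mice with p62. All 6 HD mice lay below all 6 NT mice, and the mean HD effect was -0.21 ± 0.054 (SE; limma, adjusted p = 0.0119). Lpl is also made by neurons and other brain cells, so its level in bulk striatum is not one of microglia alone.

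Tnf, the inflammatory cytokine, had values of 6.52, 6.23 and 6.06 in HD mice without p62 and 6.50, 6.58 and 6.42 in HD mice with p62, against 6.53, 6.65 and 6.99 in NT mice without p62 and 6.93, 6.68 and 6.88 in NT mice with p62. HD mice lay below NT mice of the same p62 genotype in both comparisons. The mean HD effect was -0.39 ± 0.094 (SE; limma, adjusted p = 0.00857), and it was -0.45 ± 0.133 without p62 (adjusted p = 0.033) and -0.33 ± 0.133 with p62 (adjusted p = 0.145). Tnf was also below the 25th percentile of mean log2 values. The call without p62 was lost without HD mouse without p62 number 2 or 3 or NT mouse without p62 number 3 (adjusted p between 0.104 and 0.128).

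Ctsz, a lysosomal carboxypeptidase, had values of 9.30, 9.54 and 9.43 in HD mice without p62 and 9.45, 9.48 and 9.47 in HD mice with p62, against 9.28, 9.43 and 9.27 in NT mice without p62 and 9.26, 9.33 and 9.38 in NT mice with p62. It was separated upwards in mice with p62, and its mean HD effect of 0.12 ± 0.053 (SE) did not pass (limma, adjusted p = 0.105). The lectin Clec7a had -0.03 ± 0.060 and the protease inhibitor Cst7 had -0.08 ± 0.071 (SE; limma, adjusted p = 0.708 and 0.391). Cd68, a lysosomal glycoprotein of phagocytes, had -0.10 ± 0.059 (limma, adjusted p = 0.222), and the cytokine Il1b had -0.08 ± 0.122 (adjusted p = 0.626). The co-stimulatory molecule Cd86 had 0.09 ± 0.083 (limma, adjusted p = 0.423) and the UDP receptor P2ry6 had 0.03 ± 0.058 (adjusted p = 0.708). Il1b and Cst7 lay at percentiles 18.3 and 23.1 of mean log2 values, and Cd86 and Clec7a at 25.4 and 28.1. Whether these transcripts were detected was not tested.

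The homeostatic and activation groups were also set against each other in each mouse. The measure was the median deviation of the homeostatic markers from the mean of NT mice with p62, minus the same for the activation genes. It was -0.01, 0.29 and 0.13 in HD mice without p62 and 0.19, -0.05 and 0.12 in HD mice with p62, against -0.02, -0.05 and -0.07 in NT mice without p62 and -0.01, 0.14 and -0.10 in NT mice with p62. HD mice without p62 lay above NT mice without p62 by a narrow margin (lowest HD mouse -0.0064, highest NT mouse -0.0189). The groups with p62 overlapped. No share over all genes can be set beside this measure. In each group but NT mice with p62, the mouse with the smallest array spread had the lowest measure. Whether array spread shapes the measure was not tested.

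Loss of p62 alone gave no call among the members. Comparing HD mice without p62 with HD mice with p62, 0 of 46 members passed limma at an adjusted p below 0.05, and 0.0052% of all genes were called. At an unadjusted p below 0.05 there was 1 member (Irf8, 0.22), beside 2.88% of all genes, and 2 members, Itgb2 and Tlr2, were lower without overlap, beside 7.38% of all genes separated either way. Comparing NT mice without p62 with NT mice with p62, 0 of 46 passed limma, beside 0.0052% of all genes, and 3 had an unadjusted p below 0.05, beside 3.32% of all genes. Those 3 were Tlr4 (0.43, unadjusted p = 0.000714), Cd53 (-0.26) and Cd86 (-0.30). Without overlap, Tlr4 was higher and Selplg, Cd53, Tyrobp and Cd86 were lower in NT mice without p62, 5 members beside 7.87% of all genes. For the mean p62 effect 0 of 46 passed limma, beside 0.0104% of all genes, and 2 had an unadjusted p below 0.05, beside 2.69% of all genes. Across all 6 mice without p62 and all 6 with p62, 0 members were separated, beside 0.0935% of all genes. The difference of the HD effects gave 0 of 46 calls in limma, beside 0% of all genes, and 4 had an unadjusted p below 0.05 (Cd53, Cd86, Tlr2 and Tlr4), beside 3.45% of all genes. The widest 95% half-interval of any member was 0.82 for the p62 effect in HD mice, and the median half-interval was 0.21.

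Genes around the members were described from lists that were set by name. Counts for these lists are for the mean HD effect, for which 35.0% of all genes were called (19.9% rose and 15.0% fell). Among 26 measured other microglia genes, none rose and 1 fell for the mean HD effect, namely Syk, the kinase downstream of Fc receptors and Trem2 (-0.23 ± 0.061, SE; limma, adjusted p = 0.0142). Of 30 other activation genes 3 rose and 4 fell. B2m, the light chain of MHC class I, had log2 values of 11.27, 11.44 and 11.21 in HD mice without p62 and 11.05, 11.08 and 11.09 in HD mice with p62, against 10.60, 10.42 and 10.59 in NT mice without p62 and 10.31, 10.77 and 10.35 in NT mice with p62. All 6 HD mice lay above all 6 NT mice, and the mean HD effect was 0.68 ± 0.080 (SE; limma, adjusted p = 0.000174). The protease Ctsl rose by 0.27 ± 0.057, while the galectin Lgals3 fell by 0.25 ± 0.057 and Il6 fell by 0.31 ± 0.091 (limma, adjusted p = 0.00464, 0.00667 and 0.0219). The log2 values of Il6 ran from 3.33 in HD mouse without p62 number 1 to 4.16 in NT mouse without p62 number 1. They lay below all values of Tlr4, so Il6 too was below the 25th percentile of mean log2 values. Whether the Il6 transcript was detected was not tested.

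Of 27 measured ligands and receptors between neurons and microglia, 8 rose and 5 fell for the mean HD effect, beside 35.0% of all genes called. Cx3cl1, the neuronal ligand of the microglial receptor Cx3cr1, had log2 values of 11.59, 11.58 and 11.65 in HD mice without p62 and 11.71, 11.75 and 11.71 in HD mice with p62, against 12.08, 12.08 and 11.9999 in NT mice without p62 and 12.08, 12.10 and 12.14 in NT mice with p62. It was lower in all 6 HD mice than in all 6 NT mice, by -0.42 ± 0.042 on average (SE; limma, adjusted p = 5.56e-05). Cd200, a neuronal membrane protein that restrains myeloid cells, had values of 9.32, 9.48 and 9.64 in HD mice without p62 and 9.30, 9.27 and 9.36 in HD mice with p62, against 8.92, 8.88 and 8.69 in NT mice without p62 and 8.90, 9.22 and 8.66 in NT mice with p62. Its mean HD effect was 0.52 ± 0.090 (SE; limma, adjusted p = 0.00164).

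Tyro3, a receptor tyrosine kinase found mainly on neurons in the brain, fell by 0.40 ± 0.048 (SE; limma, adjusted p = 0.000213). The ATP-gated channels P2rx4 and P2rx7 rose by 0.35 ± 0.058 and 0.27 ± 0.045 (SE; limma, adjusted p = 0.00139 and 0.00125). Of the ligands of Csf1r, Csf1 had values of 8.36, 8.48 and 8.55 in HD mice without p62 and 8.43, 7.88 and 8.37 in HD mice with p62, against 7.96, 7.80 and 7.52 in NT mice without p62 and 8.20, 8.43 and 8.04 in NT mice with p62. The groups without p62 did not overlap and those with p62 did. The difference was 0.71 ± 0.152 without p62 (SE; limma, adjusted p = 0.0106), 0.00 ± 0.152 with p62 (adjusted p = 0.99) and 0.35 ± 0.108 as the mean HD effect (adjusted p = 0.0246). The difference of these HD effects was 0.70 and did not pass (unadjusted p = 0.00684, limma, adjusted p = 0.991). In NT mice the p62 knockout itself went with a Csf1 difference of -0.46 (limma, unadjusted p = 0.0101). In HD mice it went with 0.24 (unadjusted p = 0.146), and neither passed after adjustment over all genes. Il34, named here after its values were seen because it is the other ligand, had values of 8.99, 9.02 and 9.02 in HD mice without p62 and 9.07, 9.11 and 9.01 in HD mice with p62, against 9.13, 9.23 and 9.10 in NT mice without p62 and 9.25, 9.20 and 9.20 in NT mice with p62. Its mean HD effect was -0.15 ± 0.043 (SE; limma, adjusted p = 0.0209), and it was -0.14 without p62 and -0.15 with p62, neither of which passed.

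**Figure D5:**
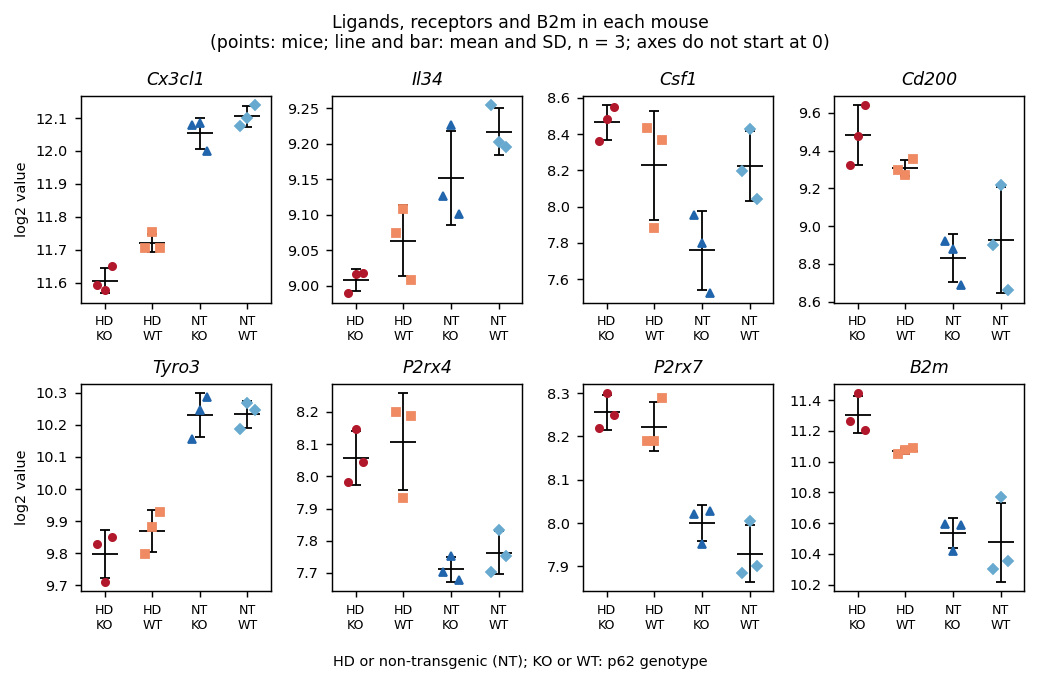
Log2 values (vertical axes, which do not start at 0) of 8 genes named from the lists around the members, in each of the 4 groups (horizontal axes). Points are mice, and lines and bars are means and SD (n = 3). Cx3cl1 lies between 11.58 and 11.75 in the 6 HD mice, below all 6 NT mice.

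Of 30 measured other complement genes, 2 rose and 5 fell for the mean HD effect, beside 35.0% of all genes called. Sez6, a neuronal protein with complement control domains, had values of 10.02, 10.06 and 10.14 in HD mice without p62 and 10.15, 10.20 and 10.21 in HD mice with p62, against 10.46, 10.58 and 10.43 in NT mice without p62 and 10.48, 10.42 and 10.58 in NT mice with p62. All 6 HD mice lay below all 6 NT mice, by -0.36 ± 0.049 on average (SE; limma, adjusted p = 0.000427). Cfb, factor B of the alternative pathway, fell by 0.44 ± 0.094, and Srpx2, a neuronal binder of C1q, fell by 0.24 ± 0.061 (SE; limma, adjusted p = 0.00465 and 0.0111). Cr1l, the rodent complement regulator Crry, rose by 0.69 ± 0.152 (SE; limma, adjusted p = 0.00543), and C1qbp, a largely mitochondrial protein, rose by 0.28 ± 0.080 (adjusted p = 0.0188). The log2 values of Cr1l were low, from 5.39 in NT mouse without p62 number 3 to 7.10 in HD mouse without p62 number 2. Whether the Cr1l transcript was detected was not tested.

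Markers of other cell types that could share these genes were measured beside them. Their counts are for the mean HD effect, for which 35.0% of all genes were called (19.9% rose and 15.0% fell). Of 12 genes of border macrophages, none rose and 2 fell, Ms4a7 (-0.23) and Cd209f (-0.37). The mean of the list was 6.54 to 6.64 in HD mice without p62, 6.62 to 6.68 in HD mice with p62, 6.57 to 6.76 in NT mice without p62 and 6.50 to 6.66 in NT mice with p62. Of 10 measured genes of monocytes and neutrophils, none rose and 4 fell, led by Retnlg (-0.37) and Plac8 (-0.26). The mean of that list was 5.91 to 6.13 in HD mice without p62, 5.93 to 6.14 in HD mice with p62, 6.17 to 6.28 in NT mice without p62 and 6.08 to 6.14 in NT mice with p62. Of 14 measured genes of T, B and NK cells, none rose and 3 fell, among them Cd4 (-0.69) and Cd3g (-0.33). Low log2 values were seen for Ms4a7 (5.82 to 6.43), Cd209f (5.73 to 6.87) and Retnlg (5.89 to 6.59). Plac8 (4.99 to 5.60) and Cd3g (6.35 to 6.99) were low too, and whether these transcripts were detected was not tested. Of 14 astrocyte genes 1 rose (S100b, 0.24) and 5 fell (such as the glutamate transporter Slc1a2, -0.29), and 5 of 13 measured oligodendrocyte genes fell. Of 15 measured endothelial and mural cell genes 3 fell. The part of these cell types in the members' differences was not tested.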

How the data were processed

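Total RNA from the striatum of 12 mice was hybridised to whole-transcript arrays. The authors deposited 1 log2 value for each probe set and mouse, and the submitters' processing notes name RMA as the tool. The sources used here give no version or settings of RMA, and its normalization between arrays would hide a shift shared by most genes. The platform table paired 19942 of 24055 probe sets with 1 gene symbol, and the probe set with the highest mean was used for each of 19248 genes. limma 3.58.1 in R 4.3.3 was fitted to all 12 arrays with 1 mean for each group (residual degrees of freedom 8), with eBayes, 7 contrasts and Benjamini-Hochberg adjustment over all genes at 0.05. An effect averaged over both genotypes is the mean of the 2 within-genotype differences. The fit was tested on simulated data.

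The titles call the samples biological replicates, and the p-values cover only the spread seen among them. Nothing says that they came from separate litters, so the p-values may leave out spread between litters and be too small. Deviations of same-numbered samples from their group means correlated at -0.337 to 0.206, so the numbers were not taken as pairs. No presence calls were used, and 19 of 46 members lay below the median of mean log2 values.

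The members and lists were chosen with earlier results of these data known. Named were all members past the threshold in any contrast, the 3 of each role with the smallest p for the mean HD effect, and, from each list of other microglia, activation, ligand and complement genes, up to 4 called genes with the smallest p for the HD effect without p62 and up to 4 for the mean HD effect. From other cell types, up to 2 called genes were named. Other members are given to account for all 46. Promoters are from RefSeq (GRCm38.p6). Alternatives tried were the replicate number as a block, other normalizations, filters, variance models and thresholds, covariates, and leaving out mice. Leaving out 3 arrays of small spread was chosen after seeing the data.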

Additional observations from a re-analysis of the deposited data

How the results depend on the processing

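No member's called difference changed direction under any alternative run, and the p62 effects and the difference of the HD effects gave 0 called members in each (limma). Counts of called members are given with the share of all genes called in the same fit. The main counts were 5 for the HD effect without p62 (21.7%), 1 with p62 (7.10%) and 11 for the mean HD effect (35.0%). For the HD effect without p62, the count was 3 with the replicate number as a block (15.9%), 3 with only the compared groups (9.05%), 9 with array weights (34.6%), 0 with the array spread as a covariate (4.38%), 10 at adjusted p below 0.1 (33.6%), 1 at adjusted p below 0.01 (5.03%) and 2 without the 3 arrays of small spread (19.1%). For the HD effect with p62, it was 2 with only the compared groups (7.30%), 2 without genes below the 50th percentile (18%), 7 with array weights (24.0%), 3 at adjusted p below 0.1 (14.5%), 0 at adjusted p below 0.01 (1.43%) and 2 without the 3 arrays of small spread (17.2%). For the mean HD effect, it was 7 without genes below the 50th percentile (48.3%), 17 with array weights (49.2%), 2 with the array spread as a covariate (13.2%), 4 at adjusted p below 0.01 (16.7%) and 10 with the replicate block (29.9%). The block ended the calls of Selplg and Tnf without p62 (adjusted p = 0.0807 and 0.0567) and of Irf8 and Fcer1g for the mean HD effect (adjusted p = 0.0636 and 0.0582). Leaving out 1 mouse at a time gave 1 to 6 called members without p62 (6.61% to 26.6% of all genes), 0 to 2 with p62 (2.07% to 10.6%) and 8 to 13 for the mean HD effect (25.9% to 39.2%). Fewer genes or samples enter some of these fits, and otherwise the cause was not tested. A fit with only the compared groups was not run for mean effects and the difference of effects, which use all groups. Signal over background was not measured for any gene. This limits what can be said of genes with low values. Among them are Il6 and the 8 members below the 25th percentile of mean log2 values. Of the other named list genes, Cr1l, Ms4a7, Cd209f, Retnlg, Plac8 and Cd3g also had low values.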
